A study of Caenorhabditis elegans with 3 samples.

Results

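pqn-41 (WBGene00004128) is a protein-coding gene of Caenorhabditis elegans that occupied chrIII:1905958-1939570 on the plus strand of build ce11. It was 1 of 19985 annotated protein-coding genes and carried 4 of the 705 peaks in the authors' reproducible peak list for the chromatin protein EGL-27. Summits, the positions of highest signal within peaks, were collected from 10000 bp upstream of the outermost 5′ end to the gene end. The gene was chosen by the signal values and the intronic grouping of its peaks in these same lists, so its peak count, its signal and its intronic positions are given as descriptions without a test.

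The lists came from chromatin immunoprecipitation followed by sequencing (ChIP-seq) against GFP in whole larvae of the first larval stage (L1), labelled as pooled male and female. All 3 biological replicates formed a single group of strain OP177, which carries the unc-119(ed3) III mutation and the transgene wgIs177 that expresses EGL-27 with a GFP tag. The note on replicate 3 describes the tag as a C-terminal GFP-FLAG fusion. Replicates 1 and 2 were sourced from the CGC with a size range of 150 to 350 bp, whereas replicate 3 came from the submitting laboratory and was fragmented by sonication with a microtip. No untagged strain, other stage or other genotype was analysed here, so the peaks describe the tagged protein in this 1 strain. In whole larvae, binding in fewer cells and weaker binding in every cell cannot be told apart.

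EGL-27 is a worm relative of the MTA proteins, subunits of the nucleosome remodelling and deacetylase complex, and it has a GATA-type zinc finger. It is known for roles in embryonic patterning and in Wnt-dependent cell polarity. PQN-41 is a glutamine-rich protein with a prion-like domain. It is known as a factor required for the death of the linker cell, a male gonadal cell that guides gonad elongation and then dies by a pathway without caspases.

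The 4 reproducible peaks, numbered here in the direction of transcription, shared a short sequence within 50 bp of each summit, the window in which it was sought. The following 101-base windows, centred on the summits and read 5′ to 3′ on the plus strand of the ce11 genome sequence from RefSeq, are printed because they are the sites of highest EGL-27 signal in the gene. Capitals mark the 11-base word TCGTGNTCTCT, the longest word with 1 free position N that all 4 windows held.
Peak 1, chrIII:1921420-1921520: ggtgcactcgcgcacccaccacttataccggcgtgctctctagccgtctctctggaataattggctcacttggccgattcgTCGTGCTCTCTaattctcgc
Peak 2, chrIII:1923615-1923715: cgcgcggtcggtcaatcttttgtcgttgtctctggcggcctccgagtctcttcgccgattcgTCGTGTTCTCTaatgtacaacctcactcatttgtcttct
Peak 3, chrIII:1925311-1925411: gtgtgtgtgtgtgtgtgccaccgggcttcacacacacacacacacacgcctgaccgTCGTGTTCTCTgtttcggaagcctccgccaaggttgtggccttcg
Peak 4, chrIII:1926578-1926678: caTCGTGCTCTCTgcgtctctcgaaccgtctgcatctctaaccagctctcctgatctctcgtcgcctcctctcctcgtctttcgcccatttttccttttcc

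All 4 summits lay inside a single intron. In the annotation, transcripts F53A3.4a.1, F53A3.4b.1 and F53A3.4c.1 start near the outermost 5′ end, at positions 1905958, 1905967 and 1905967. Their intron 14 ran from 1917305 to 1927676 and was 10372 bp long. A shorter transcript, F53A3.4d.1, starts within that intron at 1919571, and its intron 1 ran from 1919901 to 1927676, a length of 7776 bp. The remaining transcripts, F53A3.4d.2 and F53A3.4d.3, start at 1927671 and 1927675, just before the same intron ends at 1927676. Whether transcription starts at any of these annotated 5′ ends was not tested, so distances to them are distances to annotated positions. The 6 transcripts therefore had 5 distinct 5′ ends in 3 groups, and all 4 summits fell between the second group and the last one. Each summit was intronic in 4 transcripts and lay upstream of the other two.

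**Figure D1:**
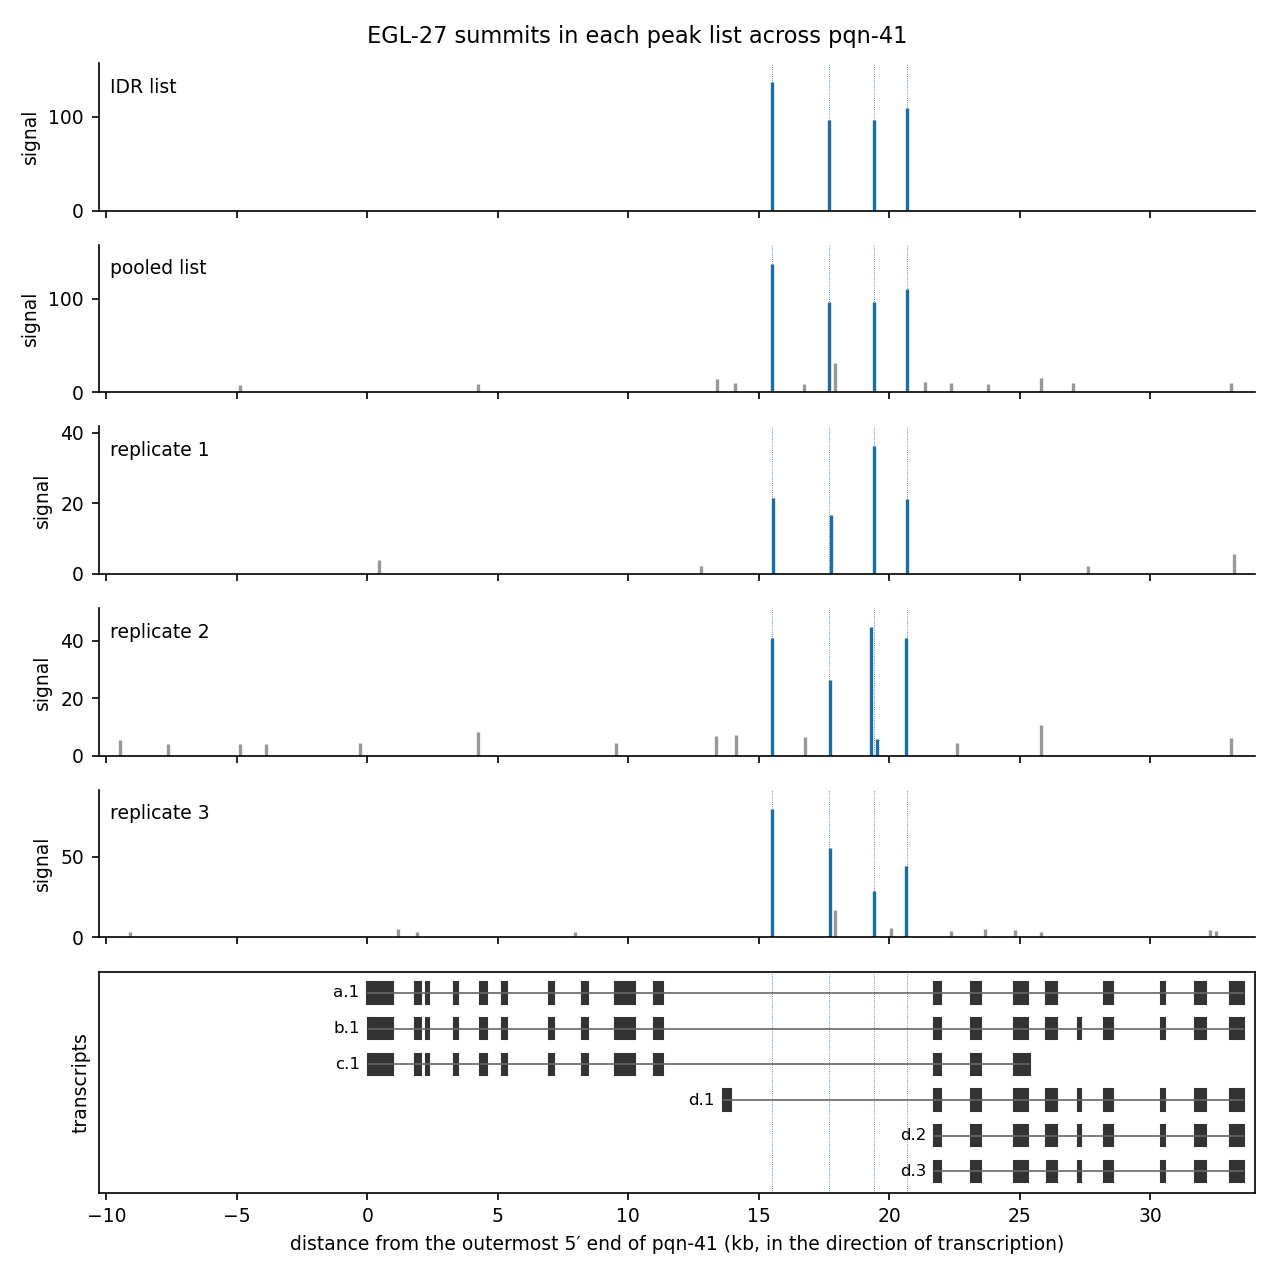
Summits of the IDR, pooled and replicate lists (vertical bars, height is the authors' signal) against distance from the outermost 5′ end of pqn-41 in kb, with the 6 annotated transcripts below (boxes are exons, and blue bars lie in the 4 IDR peaks). The highest bars of all 5 lists fall in the same 4 places of a single intron, and every grey bar is lower than the highest bar of each of the 4 peaks in the same list. The 5 lists are not independent. The 4 IDR peaks have the same positions and signals in the pooled list, which was made from the replicates.

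Peak 1 (chrIII:1921380-1921541, 162 bp) had its summit at 1921470, 1899 bp downstream of the F53A3.4d.1 5′ end. Peak 2 (chrIII:1923470-1923859, 390 bp) had its summit at 1923665, 4006 bp upstream of the F53A3.4d.2 5′ end. Peak 3 (chrIII:1925166-1925555, 390 bp) had its summit at 1925361, 2310 bp upstream of that same end. Peak 4 (chrIII:1926535-1926637, 103 bp) was the closest to it, with a summit at 1926628, 1043 bp upstream. The gaps between consecutive summits were 2195, 1696 and 1267 bp. Thus none of the 4 summits lay within 1000 bp of an annotated 5′ end of pqn-41, and the summits lay 15512 to 20670 bp downstream of the outermost one.

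The stretch of this intron outside every annotated exon of the gene was 7770 bp long (chrIII:1919901-1927670) and held 0.515 IDR summits per kb. Across the genome, 528 such intronic stretches of protein-coding genes were at least 5000 bp long, and 54 of them (10.2%) held a summit. Those long stretches held 68 summits in 4235 kb, or 0.0161 per kb. The stretch in pqn-41 was the only 1 of 104828 stretches of any length with at least 4 summits, although 185 stretches were longer. Its selection used this grouping, and these counts only place it among other introns.

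At the level of genes, 8.25% of the 19985 protein-coding genes had an IDR summit in the same kind of span, and 0.055% had at least 4. An intronic summit was found in 0.756% of genes, and at least 4 in 0.015%. The 3 genes with at least 4 intronic summits were pqn-41, egl-27 and zfp-1, the last encoding a zinc-finger chromatin protein related to mammalian AF10. egl-27 (chrII:6835008-6847908), the tagged gene itself, had 5 intronic summits with a highest signal of 169.3, and at most 2 of them shared a stretch. egl-27 sequence is also present in the transgene, and reads from the transgene and the native locus were not told apart. zfp-1 (chrIII:8791535-8806305) had 5 with a highest signal of 103.7, and at most 3 shared a stretch. The summed signal of the intronic summits was 439.2 in pqn-41, 373.1 in egl-27 and 350.9 in zfp-1.

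**Figure D2:**
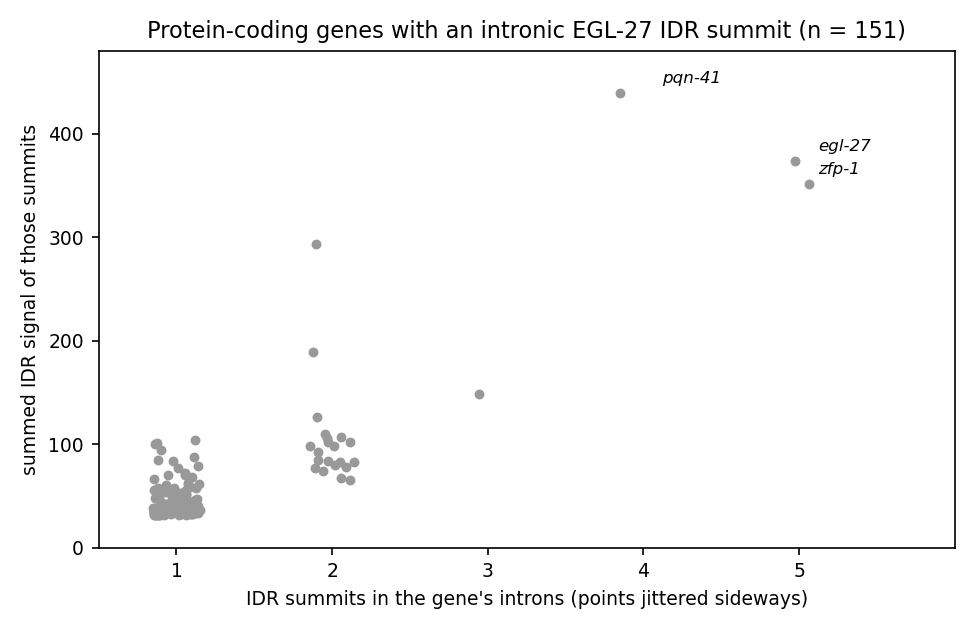
Number of intronic IDR summits (x axis, points spread sideways for visibility) against their summed IDR signal (y axis) for the 151 protein-coding genes with at least 1 such summit. pqn-41 lies at 4 summits and a sum of 439.2, above egl-27 and zfp-1, which each have 5 summits.

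The signal of a peak is its height as deposited by the authors. Heights were compared inside a single list, apart from a ratio between replicates that is set against the same ratio of other IDR peaks. In the IDR list, peak 1 had a signal of 136.9, rank 7 of 705. Peak 2 had a signal of 96.2, rank 36. Peak 3 had a signal of 96.4, rank 35. Peak 4 had a signal of 109.7, rank 16. These heights were 3.19, 2.24, 2.25 and 2.56 times the median of the list, which was 42.9. Among the 151 IDR summits in introns of autosomal genes, whose median signal was 42.2, 9 were as high as the lowest of the pqn-41 peaks, and these 9 included all 4 of them.

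The list ended at a signal of 31.5416 for rank 705, and the next peak of the pooled list, rank 706, had 31.5386. The pqn-41 peak nearest to that limit on the outer side had its summit at 1923865, a pooled signal of 30.8 and rank 744, and it overlapped peak 2. Replicate 3 had a peak of its own at nearly the same place, with its summit at 1923884, a signal of 17.0 and rank 663. Replicates 1 and 2 each had a single peak overlapping peak 2.

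Each replicate had its own list, and each of the 4 summits lay in a peak of every replicate. The scale of the signal differs between lists, which held 15286, 30000 and 30000 peaks in replicates 1, 2 and 3 and 23218 in the pooled list. Peak 1 had signals of 21.4, 41.05 and 79.8 in replicates 1, 2 and 3, with ranks 34, 37 and 5. Peak 2 had signals of 16.6, 26.2 and 55.5, with ranks 77, 108 and 29. Both stood highest by rank in replicate 3.

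Peak 3 had signals of 36.4, 44.6 and 29.0 in replicates 1, 2 and 3, with ranks 9, 33 and 206. Peak 4 had signals of 21.2, 40.8 and 44.4, with ranks 36, 38 and 66. Peak 3 was therefore the highest of the 4 in replicates 1 and 2 and the lowest in replicate 3, where peak 1 was highest. In each replicate all 4 summits lay in a peak among the 705 of highest signal, a property of 28.1% of all IDR peaks. The gene was chosen by signal in lists made from these same replicates. This placement therefore follows largely from the choice and is no separate measure of reproducibility.

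To compare replicates without the scale of each list, every peak was expressed as a share of the summed signal of the group of 4 in the same replicate. The 4 shares make up the whole in each replicate, so a fall in 1 of them raises the sum of the others. The SDs of the 4 peaks are therefore not independent. Peak 1 held 29.2% ± 8.16 (SD, n = 3) of the sum. Peak 2 held 20.4% ± 5.39 (SD, n = 3). Peak 3 held 27.05% ± 12.2 (SD, n = 3), and peak 4 held 23.4% ± 2.92 (SD, n = 3). The means lay between 20.4% and 29.2%, and no peak stood above all of the others in all 3 replicates. The ranges over replicates overlapped for every pair of peaks, but shares are paired within a replicate. Compared in that way, peak 1 held more than peaks 2 and 4 in all 3 replicates. Its lead over peak 4 was small in replicate 1 (22.4% against 22.2%) and in replicate 2 (26.9% against 26.7%). Peak 3 varied most, with 38.0%, 29.2% and 13.9% in replicates 1, 2 and 3.

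**Figure D3:**
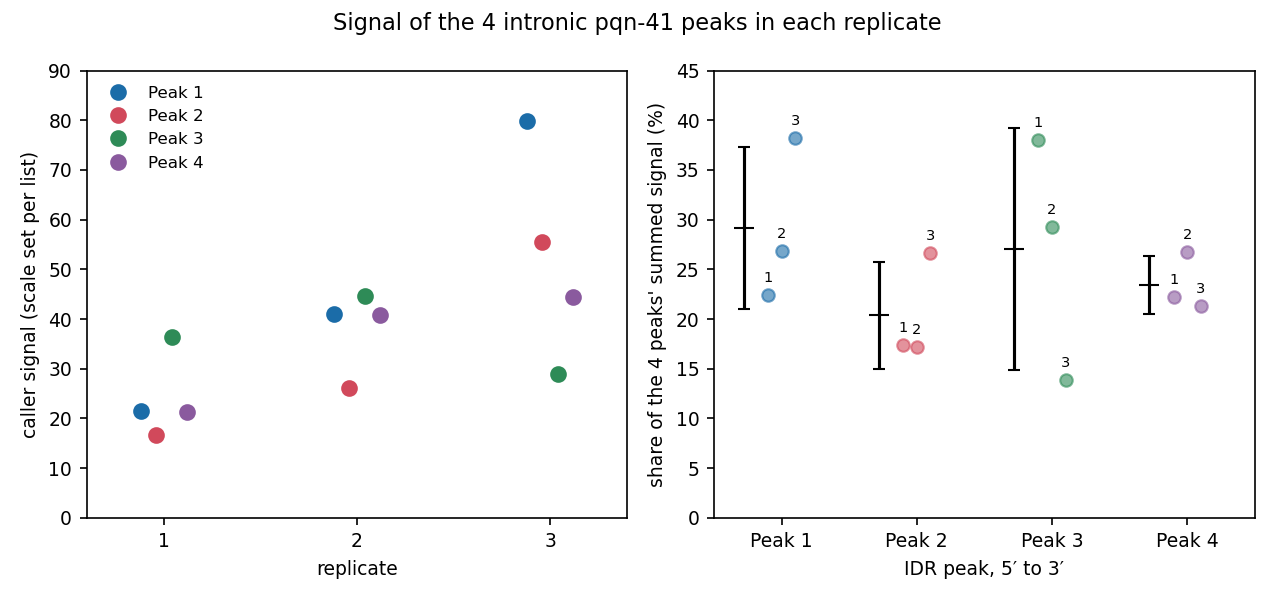
Left, the authors' signal of the 4 pqn-41 peaks in each replicate, on the scale of each list; right, the share of the summed signal of the 4 peaks in percent, with small numbers naming the replicate and black bars giving the mean ± SD (n = 3). Peak 3 is the highest of the 4 in replicates 1 and 2 and the lowest in replicate 3, and its share falls to 13.9% there.

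The position of peak 3 in replicate 3 was also compared with peaks elsewhere. Of the IDR peaks, 591 had their summit inside a peak of all 3 replicates, and ranks were taken again among these. Peak 3 ranked 4, 12 and 188 in replicates 1, 2 and 3. Peak 1 ranked 27, 16 and 5. Peak 2 ranked 70, 82 and 30, and peak 4 ranked 29, 17 and 64. The other 3 peaks all ranked below peak 3 in replicates 1 and 2 and above it in replicate 3.

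**Figure D4:**
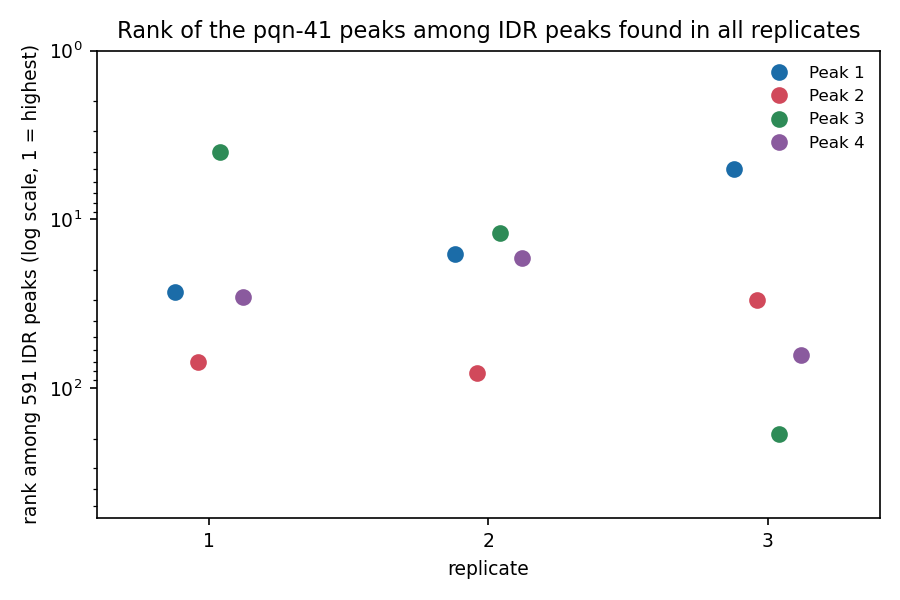
Rank of each pqn-41 peak by signal (y axis, log scale, 1 is the highest) among the 591 IDR peaks found in all replicates, by replicate (x axis, points set side by side). Peak 3 moves from ranks 4 and 12 to rank 188 in replicate 3, and peak 1 is at rank 5 there.

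The log2 ratio of the signal in replicate 3 to the mean log2 signal of replicates 1 and 2 had a median of 0.99 over the 591 peaks, with a 5th percentile of -0.27 and a 95th percentile of 2.21. The ratio was -0.47 for peak 3, at percentile 2.37. It was 1.43 for peak 1, 1.41 for peak 2 and 0.59 for peak 4, at percentiles 75.4, 74.2 and 26.4. Because the scale differs between lists, only the place of a ratio among the 591 peaks can be read, and not its sign. Peak 3 was the only 1 of the 4 with a ratio below the 5th percentile. Replicate 3 also differed from the others in its source and its fragmentation. With 1 replicate of that kind, these differences and the spread between biological replicates cannot be told apart.

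Replicate summits were taken only from peaks that overlapped the IDR peak. They were therefore bound to lie closer to its summit than the neighbouring IDR summits, and the spread below is a description. The SD of the summit position over the 3 replicates was 24.8 bp for peak 1, 37.6 bp for peak 2, 58.1 bp for peak 3 and 14.5 bp for peak 4. For peak 3 the positions spanned 113 bp, from 1925277 in replicate 2 to 1925390 in replicate 3. Replicate 2 also held a second, lower peak there, with a signal of 5.67 and rank 15625. The narrow widths of peaks 1 and 4 were shared by 14 IDR peaks, all within the top 70 by signal, while the other 691 were 390 bp wide. In replicate 3 peak 1 was 127 bp wide, and in replicates 1 and 2 it was 436 and 410 bp wide, the common width of the pqn-41 peaks in those lists.

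Outside the 4 peaks the span held further summits of the relaxed lists, which keep background on purpose. The highest of these were the pooled and replicate 3 summits beside peak 2 given above, and the replicate 3 summit was within the 705 highest of its list. The pooled list had 16 summits in the span, 0.367 per kb, against 0.232 per kb over the nuclear genome. Replicate 1 had 8 (0.183 against 0.152 per kb), replicate 2 had 18 (0.413 against 0.299) and replicate 3 had 16 (0.367 against 0.299). Of these, 12, 4, 13 and 12 lay outside the IDR peaks. The best ranks among those were 744 in the pooled list, 1676 in replicate 1, 2157 in replicate 2 and 663 in replicate 3. In every list the lowest of the 4 peaks was higher than the highest summit elsewhere in the span. The signals were 96.2 and 30.8 in the pooled list, 16.6 and 5.64 in replicate 1, 26.2 and 10.6 in replicate 2, and 29.0 and 17.0 in replicate 3, where the gap was narrowest.

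The annotated 5′ ends were examined in the same lists. Within 1000 bp of the outermost 5′ end, replicate 1 had a summit 438 bp downstream with rank 4345 and a signal of 3.98. Replicate 2 had a summit 278 bp upstream of that end with rank 25764 and a signal of 4.33, and the pooled list and replicate 3 had none. Near the F53A3.4d.1 5′ end the highest pooled summit lay 231 bp upstream, with rank 5773 and a signal of 13.7. Near the F53A3.4d.2 5′ end it lay 336 bp upstream, with rank 10048 and a signal of 11.3. All of these ranked far below the 4 intronic peaks, and no summit within 1000 bp of any of the 3 groups of 5′ ends was found in all 3 replicates.

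The span held few other genes. The nearest 5′ end of another gene belonged to B0524.10, annotated as a small nucleolar RNA, at 1918532, inside the same intron 14 and 2938 bp from the nearest IDR summit. The non-coding RNA gene F53A3.8 had its 5′ end 3056 bp away and the pseudogene WBGene00023289 had its 5′ end 7819 bp away. The protein-coding gene B0524.6, on the minus strand upstream of pqn-41, had its 5′ end 15830 bp away. A pair of non-coding RNA genes, both named B0524.8, had theirs 16960 and 17014 bp away. Among the 5′ ends in the span, those of pqn-41 itself were therefore the nearest to all 4 summits.

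Joining IDR summits that lay within 2000 bp of the next one put peaks 2, 3 and 4 into a chain of 3 and left peak 1 alone. Of the 652 chains formed in this way, 606 were single summits and 5 had at least 3. With a distance of 5000 bp the 4 peaks formed 1 chain, and 6 of 609 chains had at least 4 members. With 1000 bp none of the 4 was joined to another.

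The word TCGTGNTCTCT printed in capitals above was found by comparing the 4 windows with each other and was not searched for in advance. It lay on the plus strand in all 4, with C at the free position in peaks 1 and 4 and T in peaks 2 and 3. It started 31 bp downstream of the summit in peak 1, 12 bp in peak 2 and 6 bp in peak 3, and 48 bp upstream of the summit in peak 4. Peaks 1 and 2 shared a longer run around it, 23 bases with 1 free position. The other pairs shared 11 to 13 bases. With no free position the longest word common to all 4 had 6 bases, and the only such word, CAGAGA, was present at 25.6% of all IDR summits.

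The nuclear genome held 190 matches to TCGTGNTCTCT on either strand, of which 6 lay in pqn-41. All 6 were inside the 4 IDR peaks, and peak 3 alone held 3 of them, at 1925298, 1925367 and 1925423. Since the word was derived from these 4 windows, the matches inside pqn-41 are no measure of how it relates to peaks. Outside pqn-41, 7 of 184 matches (3.80%) lay in IDR peaks, which covered 0.269% of the genome, and 29 (15.8%) lay in pooled peaks, which covered 8.73%. The word occurred within 50 bp of 2 of the 700 IDR summits outside pqn-41 (0.286%), so it was present at few EGL-27 summits elsewhere, and most of its matches lay outside peaks. Within 25 bp it was present at 2 of the 4 pqn-41 summits. Around the replicates' own summits, 3 of the 4 windows held it in replicate 1, 4 in replicate 2 and 3 in replicate 3. The longest word common to all 4 windows then had 6, 11 and 10 bases.

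Among 7 motifs searched on both strands, 4 were absent within 50 bp of all 4 summits. These were the GATA-type motif WGATAR, present at 19.0% of the 704 nuclear IDR summits, CACGTG (6.53%), TATAAA (3.98%) and TAATTA (1.28%). Within 100 bp, WGATAR was also absent at all 4 summits and present at 30.3% of IDR summits. GAGAGA lay within 50 bp of the summits of peaks 1 and 4, and at 41.3% of all IDR summits. CANNTG was found at peaks 1 and 2, and at 40.1% of IDR summits. CTGCGTCTC was found at peak 4 and at 15.2% of IDR summits, and its match overlapped both TCGTGNTCTCT and a GAGAGA match in that peak. A match, or its absence, describes letters in these windows and not the binding of a factor.

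Within the 7770 bp intron stretch, GAGAGA occurred 32 times, and 20 of these matches (62.5%) lay in the 4 IDR peaks, which made up 13.4% of its length. Overlapping matches were counted separately, so a single GA or CT run can give several of them. Peak 3 held 12 matches, peak 4 held 6, peak 1 held 2 and peak 2 held none. None of the 12 in peak 3 lay within 50 bp of its summit, and 5 lay within 100 bp. The percentage inside the peaks thus rests largely on peak 3. Both matches to CTGCGTCTC in the stretch also lay in the peaks, in peaks 3 and 4. The windows were rich in G and C, with 56.4%, 52.5%, 59.4% and 54.5% in peaks 1 to 4, compared with 43.2% in the intron stretch and a median of 48.5% over all IDR summits. Soft-masked repeat sequence made up 41.5% of peak 3 and 40.8% of peak 4, but 13.6% of peak 1 and 9.23% of peak 2. Every 30-base word in the 4 peaks was unique in the genome, as in 89.2% of IDR peaks.

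Genes whose highest intronic peak ranked like that of pqn-41 were found by the distance between log10 ranks over the 3 replicates, among 149 genes with an intronic IDR summit and an intronic peak in every replicate. The highest intronic peak was taken in each replicate on its own, so a profile can combine different peaks. pqn-41 had ranks 9 and 33 from peak 3 in replicates 1 and 2, and rank 5 from peak 1 in replicate 3. egl-27 was closest, with ranks 7, 26 and 4 and a distance of 0.179. Y111B2A.12 followed with ranks 6, 22 and 1 and a distance of 0.742. zfp-1 had ranks 20, 71 and 31 and a distance of 0.927. mom-1, the worm porcupine gene for Wnt secretion, had ranks 19, 83 and 35 and a distance of 0.990, and Y43F8B.2 had ranks 72, 34 and 33 and a distance of 1.22. All of these genes had ranks within the top 100 in every replicate for at least 1 intronic peak.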

How the data were processed

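ChIP-seq peak lists of 3 replicates, of the pooled replicates and after irreproducible discovery rate (IDR) thresholding were used in build ce11. The ce10 lists were not used here. Per the deposited library notes, all lists were made against the same control, which was not analysed here. The read aligner, the caller of the peaks and the threshold of the IDR step are not given in the sources used here. For each peak the authors deposited a signal value, on a scale that is not stated, and a −log10 q-value with many ties. Peaks were ranked by signal within each list, ties by position. Read depth is unknown, so no interval is given for a single height.

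Coordinates are 1-based. Genes came from Ensembl release 115 (WBcel235) and sequence from the RefSeq genome, whose chromosome lengths held all peaks and genes. A summit was intronic when it lay in an intron and in no exon of the gene. Peaks of a replicate were matched to an IDR peak by overlap, taking the highest signal. Motifs were searched on both strands within 50 bp of the summit. The shared word was the longest with at most 1 free position in all 4 windows. Alternatives included other windows, spans, list lengths, summits and leaving out each replicate.

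The genes named were pqn-41, egl-27, genes with a 5′ end in the span, those with as many intronic summits, the 5 with the most similar ranks, and up to 6 members with and 3 without a summit of each list. The members, lists and rules were chosen with earlier results of these data known. No test was made. The scripts were run in Python 3.11.15 with numpy 2.4.6, pandas 2.3.3 and matplotlib 3.10.9. The steps that find stretches between exons, motif matches and the peak holding a position were tested on simulated data with known answers. The other steps were not tested in this way.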

Additional observations from a re-analysis of the deposited data

How the results depend on the processing

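Of 91 alternatives, 77 kept the reported value within its spread or within 1.5 times the reported count, and 14 moved it. Several of the 77 could not have moved, so this tally is no measure of robustness. Shorter upstream spans could not lose summits that lie inside the gene. The 352 highest IDR peaks could not lose peaks of rank 36 or better, and longer lists could not lose peaks already held. Keeping only IDR peaks in the top peaks of the other two replicates gave counts of 4 to 4 in the span and in the intron. The IDR list was not remade, and all 4 summits lie in top peaks of every replicate, so this count could not fall and says nothing of stability. Measured from the outermost 5′ end, the distances became 15512, 17707, 19403 and 20670 bp, and the midpoint of peak 4 gave 1085 bp. The rank of the highest pqn-41 peak was 7 in the pooled list, from peak 1. By significance it was 625.5, where 1250 pooled peaks shared the top q-value. In replicate 2 it was 33, from peak 3, while peak 1 had rank 37 there. The spread used for this result was the SD of the replicate ranks themselves. The chain fell from 3 members to 1 at 1000 bp. CTGCGTCTC was found at 2 summits in place of 1 with 100 bp on each side, in the whole peak, or around the summits of replicate 3. The alternatives for the shared word were chosen after seeing the data. Its length became 6 with no free position and 6 around the summits of replicate 1, and within 25 bp it was held by 2 summits. The cause of these moves was not tested, apart from the narrower or wider windows and distances themselves. No paired analysis was possible because all samples belong to a single group. Read depth is unknown, so single peak heights carry no counting error.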

Other observations

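Other genes named for glutamine- and asparagine-rich, prion-like domains (the pqn genes) were examined over the same kind of span. Of 56 annotated pqn genes, 11 (19.6%) had an IDR summit there, or 10 of 55 without pqn-41, against 8.25% of all protein-coding genes. The pqn genes were longer, with a median length of 3214 bp against 2026 bp for all protein-coding genes, and the part of length in these counts was not tested. Only pqn-41 and pqn-87 had an intronic summit, and that of pqn-87 had a signal of 33.2. The pqn-87 summit lay 867 bp upstream of the nearest 5′ end of pqn-87 and 85 bp from that of Y57A10A.38. After pqn-41 the highest signals were 85.7 for pqn-26, 68.4 for pqn-29 and 57.8 for pqn-51, followed by 51.4 for a summit shared by the spans of pqn-20 and pqn-21. The summits of pqn-26 and pqn-29 lay 9449 and 3129 bp upstream, where 5′ ends of other genes were nearer. That of pqn-51 lay 17 bp downstream of its own 5′ end and 12 bp from that of K11D12.14. The summit shared by pqn-20 and pqn-21 lay 20 bp from the 5′ end of WBGene00022955. For every pqn gene with a summit other than pqn-41, a 5′ end of another gene was nearer to the summit.

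For genes known to act in or around linker cell death, 13 of 14 listed symbols were found in the annotation used, and 3 of the 13 (23.1%) had a summit in the same kind of span, against 8.25% of all protein-coding genes. The median length of the 13 genes was 5985 bp against 2026 bp for all protein-coding genes, and the part of length was not tested here either. None of the 3 was intronic. set-16, encoding an MLL-type histone methyltransferase, had a signal of 64.7 at 210 bp upstream of its 5′ end, nearer to drr-2. siah-1, encoding a ubiquitin ligase, had 54.3 at 1437 bp upstream. let-70, encoding a ubiquitin-conjugating enzyme, had 51.4 at 768 bp upstream, nearer to M7.15. No IDR summit was found for lin-29, sek-1 or hsf-1, which encode a zinc-finger factor of developmental timing, a MAP kinase kinase and the heat shock factor.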
